A study of Arabidopsis thaliana with 6 samples.

Results

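The 10 genes described here encode transcription factors of the GARP family of Arabidopsis thaliana that tie phosphate to nitrate nutrition. They were taken by gene ID from the 29613 genes listed, and all 10 passed the filter on low counts that left 19608 genes for testing. PHR1 (AT4G28610), PHL1 (AT5G29000), PHL2 (AT3G24120) and PHL3 (AT4G13640) make up the PHR group, HRS1 (AT1G13300), HHO1 (AT3G25790), HHO2 (AT1G68670) and HHO3 (AT1G25550) the NIGT1 group, and HHO5 (AT4G37180) and HHO6 (AT1G49560) are relatives of the latter. Roots were profiled by polyA RNA-seq in 3 libraries of wild type Col-0 and 3 libraries of an overexpression line, 35S:NPC48, in which the broadly active cauliflower mosaic virus 35S promoter drives NPC48. No ecotype is labelled for the 35S:NPC48 samples, and whether they come from 1 or more transgenic lines is not stated. Plants of both genotypes received no treatment and grew on diluted MS medium with 500 µM phosphate, at 33% humidity, with 16 h of light at 24 °C and nights at 21 °C, and were sampled at the stage of opened cotyledons. Titles give the 3 replicates of each genotype the letters A, B and D, which go with the replicate numbers 1, 2 and 3.

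PHR1 is the central activator of the phosphate starvation response in plants. It binds an imperfect palindrome called P1BS, and its relatives PHL1, PHL2 and PHL3 bind the same site and share much of its work. When phosphate is plentiful, SPX proteins that carry inositol pyrophosphates hold these factors back, so their activity is known to be set largely at the level of the protein. NIGT1 factors are repressors induced by nitrate through the NLP activators, and they act on nitrate transporter genes and on phosphate starvation genes. HRS1 and HHO1 are known to restrain primary root growth when phosphate is short and nitrate is present.

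Total counts were between 20120659 and 23830604 in 5 libraries and 9479418 in 35S:NPC48 replicate A. NPC48 was not matched to a listed gene, so its own level was not analysed here. Every marker of the 6 root cell type lists had counts in each library, and 8 of 11 shoot and chloroplast markers did. Summed shoot markers were at most 149 CPM (CPM counts reads of a gene relative to the TMM-scaled library size), reached in 35S:NPC48 replicate A, with 131 CPM in wild type replicate D and 46.5 to 76.8 CPM in the other libraries. Both replicate B libraries stood apart from the other 4 in the transcriptome as a whole. With genotype as a term, edgeR's quasi-likelihood test called 21% of tested genes different among the 3 letters. No label names separate cultures, so the p-values cover the variation among these libraries alone, and part or all of it may be technical. In whole roots, fewer cells of a type and less RNA per cell cannot be told apart.

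The upstream sequences of the NIGT1 genes share a word that both groups of factors are known to meet. GAATATTC fits the P1BS consensus GNATATNC, which reads as a consensus on both strands, and it lies once within 1000 bases before the annotated start of HRS1, HHO1, HHO2 and HHO3. It was found in 4 of the 10 members, against 2.82% of the 27438 promoters of nuclear protein-coding genes of RefSeq's TAIR10.1 assembly. These 4 genes are relatives and not independent finds, and no test of this count was made. The 4 stretches below are shown because the genes behind them did not move alike between replicate letters. Each runs 5′ to 3′ on the plus strand, with the word in capitals.
HRS1, chr1:4556626-4556665: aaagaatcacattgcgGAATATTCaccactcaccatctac
HHO1, chr3:9412898-9412937: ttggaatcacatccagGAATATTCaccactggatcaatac
HHO2, chr1:25781436-25781475: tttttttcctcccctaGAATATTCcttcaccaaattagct
HHO3, chr1:8975973-8976012: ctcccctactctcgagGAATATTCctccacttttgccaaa

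In HRS1 and HHO1 the word was preceded by GAATC, the short word that NIGT1 factors are known to bind. The distance was 13 bases from the start of GAATC to the start of GAATATTC. From the first base of that GAATC to 6 bases past GAATATTC, 24 of 27 positions were identical between both genes. GAATATTC began 236 bases before the gene start in HRS1, 138 in HHO1, 349 in HHO2 and 337 in HHO3. Counting every P1BS, 5 of the 10 members had at least 1 within 1000 bases, against 20.3% of all promoters. These were the 4 NIGT1 genes and PHL1, while PHR1, PHL2, PHL3, HHO5 and HHO6 had none in this window. GAATC, on either strand and not contained in GAATATTC, was present in 9 of the 10 members and in 87.8% of promoters, so its presence sets the members little apart. A match of letters is a description and not a bound site.

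**Figure D1:**
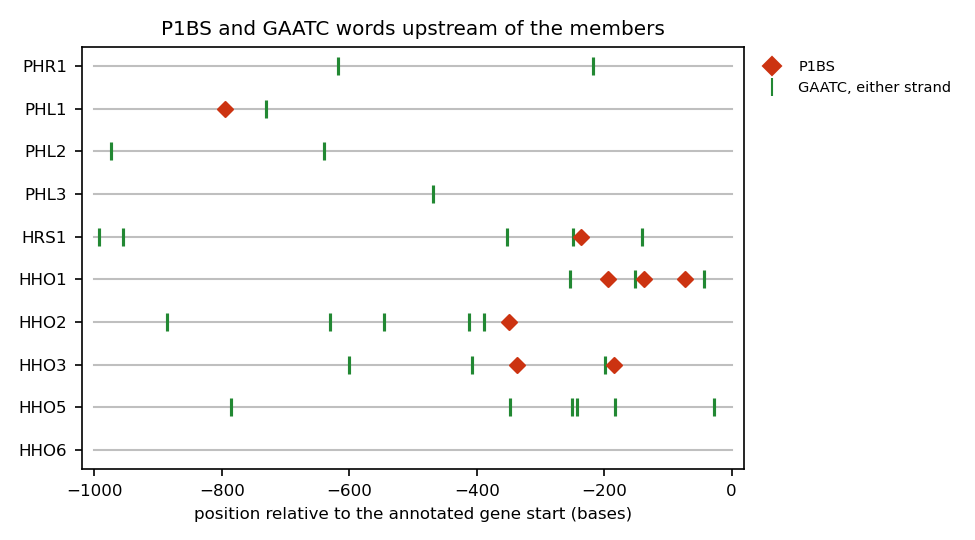
Positions of P1BS words (diamonds) and of GAATC on either strand (ticks) in the 1000 bases before the annotated start of each member, in bases relative to that start. The 4 NIGT1 genes and PHL1 hold a P1BS, HHO1 holds 3 of them and HHO3 2, and HHO6 holds neither word.

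HRS1, HHO3 and HHO1 of the NIGT1 group were the most abundant transcripts of the family and lay above every PHR gene in all 6 libraries, while the place of HHO2 changed with the library. Levels between genes were compared as CPM per kilobase of annotated exon, over all 6 libraries. HRS1 led with 167 ± 55.4 CPM per kb (SD, n = 6), followed by HHO3 with 107 ± 23.0, HHO1 with 59.9 ± 11.3 and HHO2 with 47.8 ± 26.3. PHR1 had 36.4 ± 3.87 CPM per kb and PHL2 32.7 ± 3.68. PHL3 had 17.4 ± 1.92 CPM per kb, PHL1 14.4 ± 2.27, HHO5 13.3 ± 2.14 and HHO6 5.45 ± 0.735.

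Most neighbours in that order overlapped. HRS1 ranged from 96.6 to 225 CPM per kb and HHO3 from 88.4 to 139, and their order was not the same in all libraries, since HHO3 was above HRS1 in both replicate B libraries and below it in the other 4. HHO1, from 48.6 to 81.7 CPM per kb, lay inside the range of HHO2, from 28.6 to 86.3. HHO2 was above the PHR group only in the replicate B libraries, at 76.6 and 86.3 CPM per kb. In the other 4 it had 28.6 to 32.2 CPM per kb, below PHR1 in all 4 and below PHL2 in 3 of them. PHR1 was above PHL2 in 6 of 6 libraries, although their ranges of 31.6 to 41.4 and 28.2 to 36.1 CPM per kb overlapped. HHO6, at 4.55 to 6.26 CPM per kb, was below every other member in all 6 libraries. PHR1 overlaps AT4G28600 on the opposite strand in the TAIR10.1 annotation, and the strand setting of the counting is not given in the sources used here, so reads of these 2 genes cannot be told apart where they overlap.

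In the comparison of 35S:NPC48 with wild type, no member passed the test. PHR1, the activator at the head of the pathway, measured 73.4 (A), 56.6 (B) and 66.4 CPM (D) in wild type, compared with 66.9, 56.0 and 68.0 CPM in the 35S:NPC48 line. Both genotypes had their lowest value in replicate B, and the groups overlapped. Its log2 fold change was -0.04 ± 0.15 (SE), with a 95% interval from -0.39 to 0.31.

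PHL1, the closest relative of PHR1, stood at 34.7, 29.0 and 44.6 CPM in the wild type libraries A, B and D, against 37.6, 32.9 and 42.0 CPM in the same letters of 35S:NPC48. PHL2 measured 40.4 (A), 39.6 (B) and 50.5 CPM (D) in wild type, compared with 50.0, 44.1 and 50.6 CPM in the 35S:NPC48 line. PHL3 stood at 24.1, 20.5 and 25.0 CPM in the wild type libraries A, B and D, against 27.5, 24.6 and 21.0 CPM in the same letters of 35S:NPC48. The groups overlapped for each of these 3 genes, and within a genotype the highest and lowest library differed more than the genotype means did. The log2 fold changes were 0.05 ± 0.19 for PHL1, 0.15 ± 0.14 for PHL2 and 0.07 ± 0.16 for PHL3. Summed over the PHR group, the level was 101, 86.5 and 109 CPM per kb in wild type and 108, 93.9 and 106 CPM per kb in 35S:NPC48, with PHR1 making up 33.6% to 40.8% of it.

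**Figure D2:**
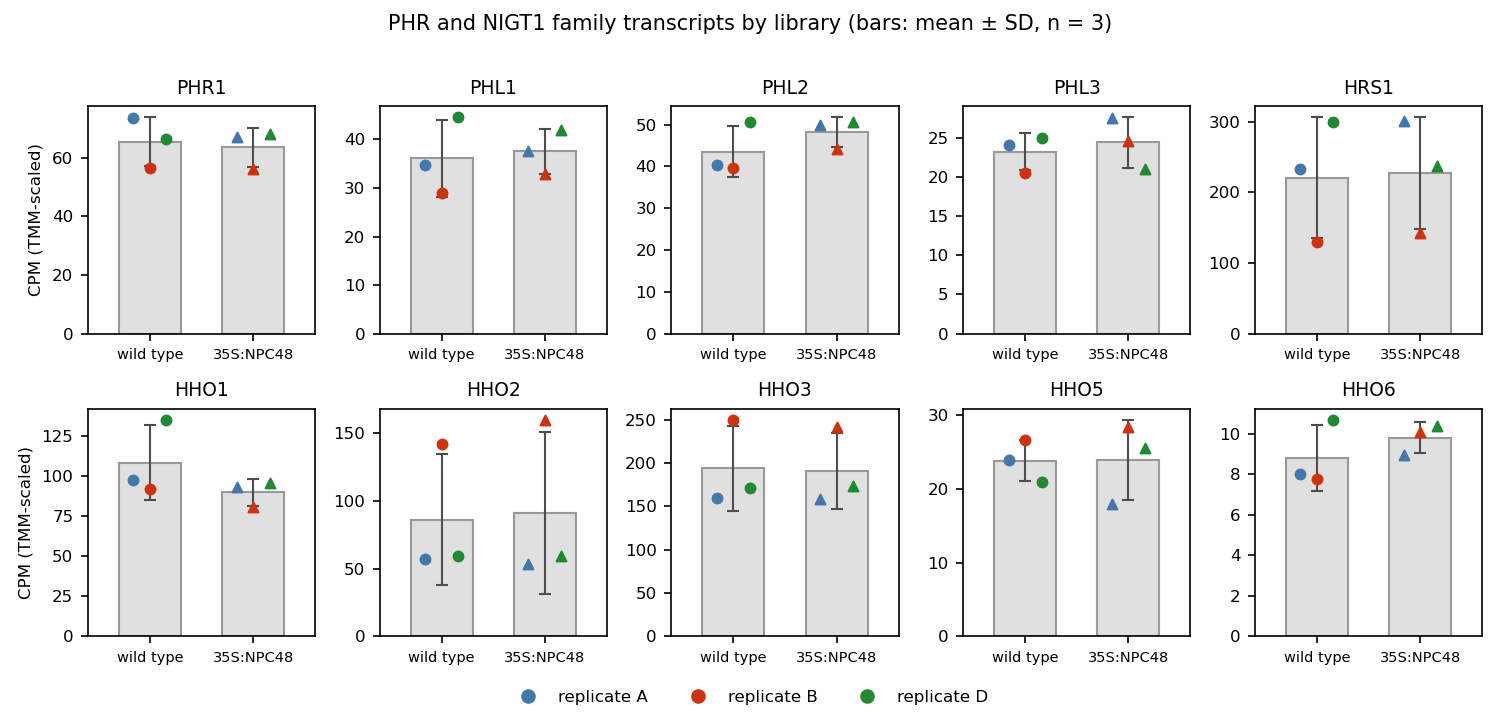
CPM of each member in the 6 libraries, with circles for wild type, triangles for 35S:NPC48 and colours for replicate letters. Bars and lines give the mean ± SD (n = 3). The genotypes overlap in all 10 panels, whereas replicate B is lowest of its genotype for HRS1 and highest for HHO2 and HHO3.

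Among the NIGT1 repressors, HHO1 had the lowest fold change of all members. It measured 97.4 (A), 92.0 (B) and 135 CPM (D) in wild type, compared with 92.9, 80.3 and 95.7 CPM in the 35S:NPC48 line. The line was below wild type in 3 of 3 letters, by a log2 of 0.07 in A, 0.20 in B and 0.50 in D, yet the lowest wild type library lay below 2 libraries of the line. The log2 fold change was -0.27 ± 0.19, with a 95% interval from -0.70 to 0.16. Without single libraries it ran from -0.37 to -0.08, the latter without wild type replicate D. With the replicate number as a block it was -0.26 ± 0.11, with an unadjusted p of 0.0440 and an adjusted p of 0.430 in edgeR, so it was not called either way.

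HRS1, the most abundant member, stood at 233, 129 and 299 CPM in the wild type libraries A, B and D, against 301, 143 and 237 CPM in the same letters of 35S:NPC48, so that the line was above wild type in A and B and below it in D. HHO2, a NIGT1 gene linked to phosphate uptake, measured 57.4 (A), 142 (B) and 59.4 CPM (D) in wild type, compared with 53.1, 160 and 59.6 CPM in the 35S:NPC48 line. HHO3, also known as NIGT1.1, stood at 160, 250 and 171 CPM in the wild type libraries A, B and D, against 159, 241 and 173 CPM in the same letters of 35S:NPC48. For HHO2 and HHO3 the libraries of equal letter were nearly level between genotypes, and the wide spread within each genotype came from replicate B. The log2 fold changes of HRS1, HHO2 and HHO3 were 0.04 ± 0.37, 0.08 ± 0.52 and -0.02 ± 0.24. Their 95% intervals ran from -0.81 to 0.90, from -1.13 to 1.28 and from -0.58 to 0.55. With the block, these intervals became -0.26 to 0.38 for HRS1, -0.19 to 0.25 for HHO2 and -0.22 to 0.19 for HHO3. A fold change of 2 thus lay outside the blocked intervals of these genes, and inside the interval without the block for HHO2.

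HHO5, known as a partner of ULTRAPETALA1 in floral meristems, measured 23.9 (A), 26.6 (B) and 21.0 CPM (D) in wild type, compared with 17.9, 28.4 and 25.6 CPM in the 35S:NPC48 line. HHO6 stood at 8.01, 7.77 and 10.7 CPM in the wild type libraries A, B and D, against 8.95, 10.1 and 10.4 CPM in the same letters of 35S:NPC48. Both overlapped between genotypes, with log2 fold changes of 0.01 ± 0.20 and 0.15 ± 0.19. In all, edgeR called 0 of 10 members between genotypes, where 0.0102% of tested genes were called. At an unadjusted p under 0.05 there were 0 members and 695 of the 19608 tested genes. With the block edgeR again called 0 of 10, where 1.21% of tested genes were called (0.841% higher and 0.367% lower). At an unadjusted p under 0.05 there were then 1 member, HHO1, and 2203 of the 19608 tested genes. DESeq2 called 0 members as well. The median log2 fold change was 0.05 over the members and 0.01 over all tested genes.

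**Figure D3:**
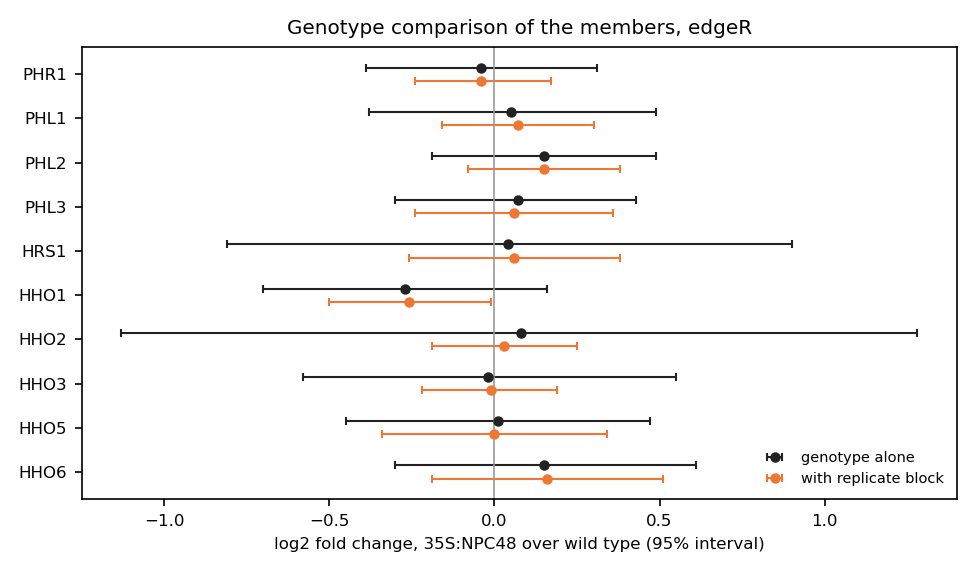
Log2 fold change of 35S:NPC48 over wild type for each member with its 95% interval, from the fit with genotype alone (black) and with the replicate block (orange). The widest interval is that of HHO2, from -1.13 to 1.28, and it shrinks to -0.19 to 0.25 with the block.

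The replicate letters, in contrast, divided the NIGT1 group. HHO2 and HHO3 were higher and HRS1 was lower in replicate B than in replicates A and D, in both genotypes. All 3 letters were compared alike in 1 fit with genotype as a term, and what a letter stands for is not stated in the labels, which give the same growth conditions for every library. Each letter holds 1 library per genotype, so a gene's own spread comes from how far its genotype difference varies from letter to letter. The test combines that spread with the spread of other genes, giving 7.86 degrees of freedom for each member. HRS1 (edgeR adjusted p = 0.0108), HHO2 (0.000237) and HHO3 (0.0122) differed among letters, which is 3 of 10 members against 21% of tested genes.

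HHO2 rose most. Within wild type, replicate B had 2.48-fold the level of A and 2.39-fold that of D, and within 35S:NPC48 these ratios were 3.01 and 2.68. In the fit, the log2 difference was 1.45 ± 0.12 over A (edgeR adjusted p = 0.000215) and 1.34 ± 0.12 over D (0.000335). It kept both calls when any single library was left out, with a range from 1.34 to 1.56 over A and from 1.24 to 1.45 over D. Its change stood beside larger ones among the genes that PHR1 activates. Of 28 genes listed as PHR1 targets, 25 were tested and all 25 were called higher in B than in A, with a median log2 difference of 4.21, against 0.00 over all tested genes. The noncoding RNA IPS1, which blunts miR399, had 393 and 313 CPM in the B libraries of wild type and 35S:NPC48 and at most 0.650 CPM in the other 4.

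HHO3 rose less, by a log2 of 0.62 ± 0.11 over A (edgeR adjusted p = 0.00786) and 0.51 ± 0.11 over D (0.0153). The ratios of B to A were 1.56 in wild type and 1.51 in 35S:NPC48. The size stayed between 0.47 and 0.65 when single libraries were left out, but calls were lost. Over A, the adjusted p became 0.0826 without wild type replicate A, 0.117 without wild type replicate B, 0.0614 without 35S:NPC48 replicate A and 0.107 without 35S:NPC48 replicate B. Over D, it became 0.215 without wild type replicate B and 0.166 without 35S:NPC48 replicate B.

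HRS1 fell by a log2 of 0.97 ± 0.17 relative to A (edgeR adjusted p = 0.00794) and by 0.98 ± 0.17 relative to D (0.00727), which brought it to 0.511 and 0.506 of those levels. Both B libraries, at 129 and 143 CPM, lay below the other 4, which started at 233 CPM. The call over A was lost without 35S:NPC48 replicate A (adjusted p = 0.0518) and without 35S:NPC48 replicate B (0.0534), while that over D held without any single library. HHO1, whose upstream stretch resembles that of HRS1, was not called, with -0.15 ± 0.13 over A and -0.41 ± 0.13 over D (adjusted p = 0.474 and 0.0592). The size of the HHO1 difference depended on the libraries kept. Without 35S:NPC48 replicate D, the HHO1 difference was -0.59 for B over D and 0.43 for D over A. Without wild type replicate D these were -0.24 and 0.08. Both B libraries of HHO1, at 92.0 and 80.3 CPM, lay below the other 4, which started at 92.9 CPM. GAATATTC was thus present upstream of 2 genes that rose, of 1 that fell and of 1, HHO1, that was lower in B but not called.

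**Figure D4:**
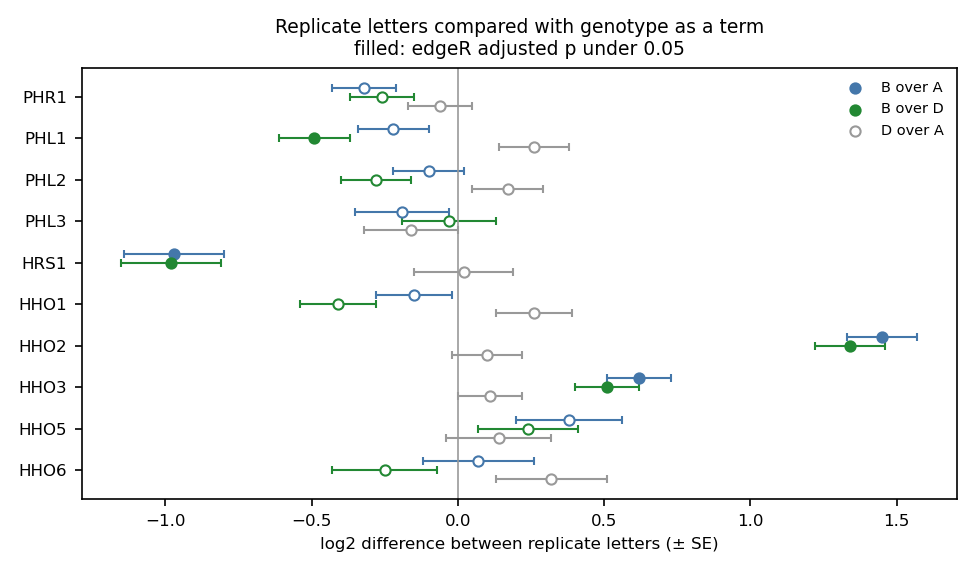
Log2 differences between replicate letters (± SE) for each member, with genotype as a term. Filled points passed edgeR's test at an adjusted p under 0.05. HHO2 and HHO3 lie to the right of 0 and HRS1 to the left for B over A and B over D, and no D over A point is filled.

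These opposite moves left the NIGT1 total about level and changed its make-up. The sum of the 4 genes was 353, 368 and 433 CPM per kb in wild type replicates A, B and D and 399, 376 and 364 CPM per kb in those of 35S:NPC48, so the B libraries lay inside the range of the other 4. HRS1 held 26.3% of the sum in wild type replicate B and 28.5% in 35S:NPC48 replicate B, and between 48.8% and 56.5% in the other libraries. HHO2 held 20.9% and 23.0% in the B libraries and between 7.18% and 8.84% elsewhere. HHO3 held 37.7% and 35.6% in B against 21.9% to 26.4%, and HHO1 12.9% to 18.9% throughout. The ratio of HHO2 to HRS1, per kb, was 0.794 and 0.805 in the B libraries and 0.127 to 0.181 in the other 4, with no overlap.

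**Figure D5:**
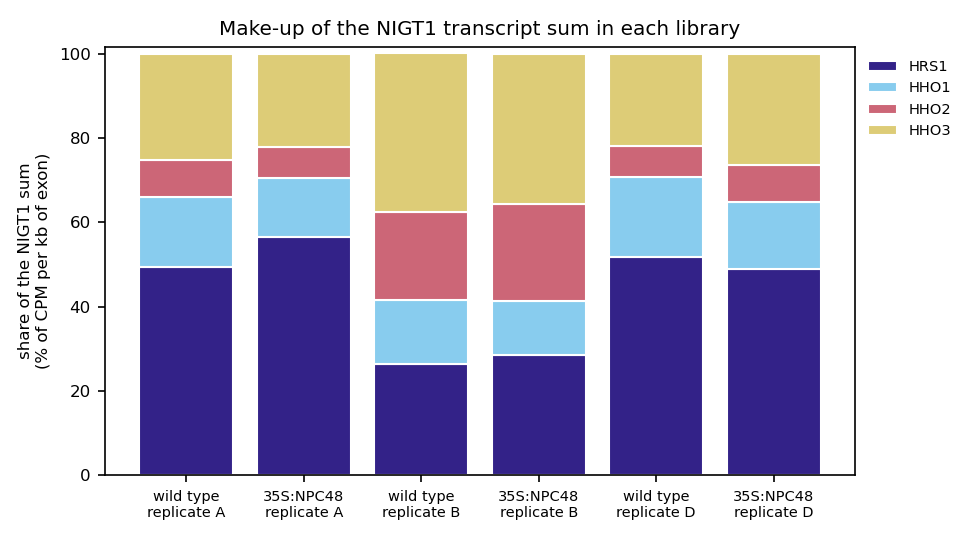
Share of each NIGT1 gene in the summed CPM per kb of exon of the group, by library and ordered by replicate letter. HRS1 falls to 26.3% and 28.5% in the replicate B libraries, and HHO2 reaches 20.9% and 23.0% there.

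No PHR gene rose in replicate B, where the listed PHR1 targets did. PHR1 was lower in both B libraries than in the other 4, with -0.32 ± 0.11 over A and -0.26 ± 0.11 over D, and was not called (edgeR adjusted p = 0.0792 and 0.132). The lack of a call for PHR1 did not hold in every fit without a single library. The PHR1 difference over A was -0.34 without wild type replicate D and -0.34 without 35S:NPC48 replicate D. Over D it was -0.33 without wild type replicate D. PHL1 fell by a log2 of 0.49 ± 0.12 relative to D (adjusted p = 0.0270), a call lost without wild type replicate B (0.299) and without 35S:NPC48 replicate B (0.154), and had -0.22 ± 0.12 over A (0.246). PHL2 had -0.10 ± 0.12 and -0.28 ± 0.12 over A and D, and -0.40 over D without 35S:NPC48 replicate D. PHL3 had -0.19 ± 0.16 and -0.03 ± 0.16. HHO5 had 0.38 ± 0.18 over A and 0.24 ± 0.17 over D, with adjusted p of 0.179 and 0.361, although both B libraries were above the other 4. For HHO5 over A, too, the lack of a call did not hold in every fit without a single library. The HHO5 difference over A was 0.36 without wild type replicate D and 0.36 without 35S:NPC48 replicate D. Over D it was 0.02 without the former and 0.45 without the latter. HHO6 had 0.07 ± 0.19 and -0.25 ± 0.18.

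Counted over the family, B over A gave 3 called members, 2 higher and 1 lower, where 19.9% of tested genes were called, 10.8% higher and 9.2% lower. B over D gave 4, 2 higher and 2 lower, where 21.7% were called, 11.3% higher and 10.4% lower. Both B libraries were above the other 4 for 3 members and below them for 4, where 21.5% and 21.1% of tested genes did so. With 10 members, these counts are small numbers, and no test of the members against all genes was made. Between D and A, edgeR called 0 members and 0% of tested genes, with 0 members and 2659 genes at an unadjusted p under 0.05, and DESeq2 called 0 members. No gene of the pathway lists was called between D and A either.

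Regulators of PHR activity moved in part with replicate B. Of 15 listed, 14 were tested, and 2 were called higher and 2 lower in B than in A, with a median log2 difference of -0.18. SPX1 and SPX2, sensors that bind PHR1 when phosphate is ample, rose by 7.17 ± 0.31 and 2.48 ± 0.14 (edgeR adjusted p = 1.08e-05 and 4.2e-05). VIH2, an inositol pyrophosphate synthase, had -0.96 ± 0.12 (0.00151) and EIN3, an ethylene regulator reported to act on PHR1, had -0.38 ± 0.11 (0.0449), both called lower. SPX4, at 11.8 and 12.4 CPM in the B libraries and 13.4 to 17.1 CPM in the others, was not called (-0.34 ± 0.16, 0.176). Relative to D, 3 were called higher and 1 lower, with a median of -0.08. SPX1, SPX2 and VIH2 were again called, VIH1 was called higher with 0.98 ± 0.18 (0.00973), and EIN3 was not called (-0.35 ± 0.11, 0.0546).

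Genes on the nitrate side fell with HRS1. Of 18 nitrate response genes, all tested, 12 were called lower and 0 higher in B than in A, with a median log2 difference of -0.81, and 13 lower and 0 higher than in D, with a median of -0.88. BT1 and BT2, encoding BTB-TAZ scaffold proteins, fell, with log2 differences of -2.89 ± 0.18 and -2.33 ± 0.14 over A. The nitrate transceptor gene NRT1.1 had -1.40 ± 0.17 and the nitrite reductase gene NIR1 -1.25 ± 0.18, both called. Of the NLP activators, 8 of 9 were tested, with NLP8 called higher (1.08 ± 0.24) and NLP3 (-1.87 ± 0.42), NLP1 (-0.76 ± 0.13) and NLP2 (-0.53 ± 0.14) lower than in A, while NLP7, the master nitrate regulator, was not called (-0.28 ± 0.15, edgeR adjusted p = 0.232). Relative to D, NLP8 was again called higher and NLP3 and NLP1 lower, while NLP2 was not called (-0.40 ± 0.14, 0.0784). Of the 6 root hair and epidermis markers, 4 were called higher in B than in A and 3 higher than in D. COBL9, RHD6 and EXPA18 were called in both comparisons and EXPA7 over A alone, while WER and GL2 were called in neither. The summed level of the 6 markers was 321 and 281 CPM in the B libraries and 162 to 217 CPM in the others. Of 6 endodermis markers, 1 was called lower in B than in A and 5 were called lower than in D. Their median log2 difference was -0.05 for B over A, -0.59 for B over D and 0.62 for D over A. Their summed levels were 736 and 792 CPM in B and 700 to 1260 CPM elsewhere. The part of these cell types in the NIGT1 values was not tested.

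Among 10 genes reported as NIGT1 targets, 7 were tested, with 4 called higher and 1 called lower in B than in A. Those called higher were SPX1, SPX2 and the phosphate transporter genes PHT1;4 (3.86 ± 0.16) and PHT1;1 (1.11 ± 0.22). All 4 are known to respond to phosphate shortage, and 3 of these 4 are also in the list of PHR1 targets. CYP735A2, a cytokinin hydroxylase gene, was lower (-1.07 ± 0.18, edgeR adjusted p = 0.00581). The nitrate transporter genes of that list were hardly transcribed. NRT2.1 was at 0.213 to 3.37 CPM, and NRT2.2 and NRT2.5 had 0 counts in all 6 libraries. Of 24 other GARP genes, 22 were tested and 7 were called lower and 0 higher in B than in A, led by the clock genes BOA (-0.83 ± 0.17) and LUX (-0.72 ± 0.12), PHL4, a further PHR relative (-0.74 ± 0.17), and MYBC1 (-0.69 ± 0.13), with a median of -0.30. Relative to D, 1 was called higher (AT3G12730, 1.00 ± 0.29) and 4 lower, with 11 of 22 above 0 and a median of 0.01. BOA (-0.99 ± 0.17) and LUX (-0.71 ± 0.12) were called there too, as were AT5G06800 (-0.59 ± 0.14) and AT3G13040 (-0.40 ± 0.12), whereas PHL4 and MYBC1 were not (edgeR adjusted p = 0.0654 and 0.0593).

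Between genotypes, edgeR called 0 genes of these lists without the block. Median log2 fold changes were -0.21 for the nitrate response genes (1 of 18 above 0), -0.20 for the NLP genes (1 of 8), -0.15 for the NIGT1 targets (0 of 7), -0.07 for the PHR1 targets (9 of 25), -0.09 for the PHR regulators (4 of 14) and 0.08 for the other GARP genes (16 of 22), against 0.01 over all tested genes. With the block, 3 listed genes outside the members passed. VIH2 measured 126 (A), 70.4 (B) and 113 CPM (D) in wild type, compared with 251, 120 and 197 CPM in the 35S:NPC48 line, with the line higher in 3 of 3 letters (0.85 ± 0.09, edgeR adjusted p = 0.00562 with the block and 1 without). The 168 tested genes from AT3G01280 to AT3G03010, among which VIH2 lies, had a median log2 fold change of 0.98, and none of the members lies there. The PHR1 target GDPD1, a glycerophosphodiester phosphodiesterase gene, lies in the same stretch and was also called with the block. NLP2, an activator of nitrate-responsive genes, stood at 29.6, 21.4 and 29.7 CPM in the wild type libraries A, B and D, against 19.2, 12.7 and 15.7 CPM in the same letters of 35S:NPC48, with no overlap, as in 7.76% of tested genes (-0.77 ± 0.11, edgeR adjusted p = 0.0199 with the block and 0.562 without). Of the 10 members, 0 had such separate groups.

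The genes whose levels lay closest to each member over the 6 libraries were found by the root mean square difference of centred log2 CPM. The candidates were 18700 genes averaging 1 CPM or more, and whether matches this close exceed chance was not tested. HRS1 was followed by AT1G51270, AT1G23205 and CP12-3 (0.05, 0.06 and 0.07), and HHO1 by AT4G39670, AT3G14470 and AT1G64300 (0.04, 0.06 and 0.06). For HHO2 they were AT5G43150, APL1, an ADP-glucose pyrophosphorylase subunit gene, and SAT32 (0.05, 0.07 and 0.07). For HHO3 they were UKL2, AT5G13440 and MTHFR2, each at 0.03. PHR1 was followed by MEKK1, AT1G30080 and CYP71B26, PHL1 by RTH, AT1G03457 and SNRK2.2, PHL2 by LAF3, AT4G13050 and AT5G49710, and PHL3 by AT2G28240, AT1G08910 and AT4G28300, all between 0.02 and 0.04. HHO5 was followed by FC2, AT5G15050 and AT1G75730 and HHO6 by DGAT2, ACHT2 and AT3G28480, each at 0.04. Within the family, PHL1 and PHL2 were among the most alike pairs (0.11), HRS1 and HHO1 differed by 0.38, HHO2 and HHO3 by 0.40, and HRS1 and HHO2 were the least alike (1.13).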

How the data were processed

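Raw counts of reads per gene are what the authors deposited, in 1 file for each library. The submitters' processing notes name Trimmomatic 0.36 and STAR 2.5.2b, list featureCounts with Subread 1.6.5, and give TAIR10 as the build. Neither the annotation release, the strand setting nor the handling of multiply mapped reads is stated there. The count tests used edgeR 4.0.16 under R 4.3.3, with DESeq2 1.42.0 as an alternative. Genes passed filterByExpr (minimum count 10, minimum total 15), libraries were scaled by TMM, and the quasi-likelihood F test was adjusted by Benjamini-Hochberg over all 19608 tested genes, with 0.05 as threshold. The filter removed genes seen in too few libraries, SPX3 and PHT1;8 among them. SE were taken from the F statistic and intervals are 95%. Genotype was the single term, and letters were tested with genotype as a term. The script was tested on simulated counts.

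Equal replicate numbers deviated together across genes (r = 0.53, 0.83 and 0.37 for replicates 1, 2 and 3), so the numbers, taken from the labels, were read as pairing the libraries. Replicates 1 and 3 also correlated across numbers (0.39 and 0.34), so the check speaks mainly for replicate 2. Library pairs within a genotype differed by far more than sampling noise (a chi-square of 16.5 to 99.6 for each degree of freedom). Counting error is only part of the spread between libraries.

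Exon lengths, gene starts and upstream sequence came from RefSeq's TAIR10.1 assembly, which was not compared with TAIR10. The members and lists were chosen with earlier results of these data known. Named were all members, up to 4 called genes per list and comparison, and the 3 genes most alike each member. SPX4, NLP7, SPX3, PHT1;8, WER, GL2 and the NRT2 genes were added after their values were seen. Alternatives were RLE scaling, no filter, DESeq2, the replicate block, dropping the genotype term, and leaving out libraries.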

Additional observations from a re-analysis of the deposited data

How the results depend on the processing

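Between genotypes, 0 members were called under every alternative run. The count over all genes, 2 in the reported fit, was 157 with DESeq2 on the same genes, 237 with the replicate block, 46 without both replicate B libraries and 0 to 2 without single libraries; the cause was not tested. Uncalled fold changes near 0 changed sign when libraries were left out. Without single libraries they ran from -0.14 to 0.05 for PHR1, -0.08 to 0.23 for PHL1, -0.03 to 0.16 for PHL3, -0.23 to 0.32 for HRS1, -0.63 to 0.64 for HHO2, -0.23 to 0.21 for HHO3 and -0.14 to 0.18 for HHO5. Without both replicate B libraries PHL3 had -0.04, HHO2 -0.06 and HHO5 -0.05. The replicate block changed no call of a member.

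For the letters, RLE scaling, no filter, DESeq2 and dropping the genotype term kept each count of called members. Without single libraries, which leaves 1 residual degree of freedom, the number of members called was 1 to 8 among letters (993 to 9157 of all genes), 1 to 5 for B over A, 2 to 7 for B over D and 0 to 1 for D over A. Uncalled differences that changed sign ran from -0.24 to 0.01 for PHL2 and -0.09 to 0.23 for HHO6 (B over A), from -0.27 to 0.19 for PHL3 (B over D), and from -0.29 to 0.30 for HRS1, -0.14 to 0.45 for HHO5 and -0.41 to 0.06 for PHL3 (D over A). Calls were gained as well as lost in fits without single libraries, with PHR1 and HHO5 among the gains for B over A. Depth, lowest in 35S:NPC48 replicate A, limits HHO6 most, with 84 counts there.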
